A study of Mus musculus with 2 samples.

Results

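Hmgcs1, Sqle, Idi1, Fdft1, Insig1, Srebf2, Lss and Dhcr7 are 8 genes of cholesterol synthesis and its control, and they were taken by name. Of these 8 genes, 7 were found by symbol among the 23889 gene symbols of the data, and Hmgcs1, which encodes the cytosolic HMG-CoA synthase, is not analysed here. The cells were E14, a line of mouse embryonic stem cells (mESCs), grown without feeder cells on gelatin in medium with 15% serum and LIF at 1000 U/ml, a cytokine that holds mESCs in self-renewal. The study compared 1 library of cells transfected with a control shRNA (genotype given as Normal) with 1 library of cells transfected with an shRNA against USP21 (genotype given as USP21 knockdown), a deubiquitinating enzyme, both harvested after 3 days of knockdown. The labels do not say which USP21 shRNA was used. The values are FPKM, given with the control library first, that is fragments scaled to transcript length and sequencing depth, so levels of genes can be compared with each other within a library. Neither group had a replicate, so no value below carries an error and no difference was tested against the spread between cultures.

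Cholesterol is built from acetyl-CoA in a long chain of enzyme steps, through mevalonate, farnesyl diphosphate, squalene and lanosterol. Most of the genes of this chain are switched on by SREBP2, the membrane-bound transcription factor that Srebf2 encodes. When sterols are plentiful, the INSIG proteins hold SREBP2 and its escort SCAP in the endoplasmic reticulum. When sterols are scarce, SCAP carries SREBP2 to the Golgi, where the proteases encoded by Mbtps1 and Mbtps2 release its active part. Serum supplies cells with cholesterol in lipoproteins, which enter by receptors at the cell surface.

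SREBPs bind weakly on their own and are known to act with NF-Y, which binds the CCAAT box, and with Sp1, which binds the GC box. The promoters of the members are therefore shown first. Of the 7 measured members, 5 had an entry in the RefSeq promoter table (build GRCm38.p6), which gives 300 bases for each gene, 250 before and 50 after its annotated start. The 4 windows printed here hold the members with the lowest and the highest log2 ratio (Insig1 and Idi1), the gene of the transcription factor itself (Srebf2) and an enzyme with little difference (Lss). All lie on the plus strand, at chr5:28071162-28071461 for Insig1, chr13:8885356-8885655 for Idi1, chr15:82147019-82147318 for Srebf2 and chr10:76531355-76531654 for Lss. Capitals mark each CCAAT (or its reverse complement ATTGG) and each GGGCGG (or CCGCCC).
Insig1: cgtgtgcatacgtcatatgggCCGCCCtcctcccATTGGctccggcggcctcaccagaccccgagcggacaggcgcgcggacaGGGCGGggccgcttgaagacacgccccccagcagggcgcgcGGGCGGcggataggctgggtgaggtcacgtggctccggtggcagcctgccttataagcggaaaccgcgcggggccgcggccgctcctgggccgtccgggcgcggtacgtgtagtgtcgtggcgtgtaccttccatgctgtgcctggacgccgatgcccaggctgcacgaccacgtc
Idi1: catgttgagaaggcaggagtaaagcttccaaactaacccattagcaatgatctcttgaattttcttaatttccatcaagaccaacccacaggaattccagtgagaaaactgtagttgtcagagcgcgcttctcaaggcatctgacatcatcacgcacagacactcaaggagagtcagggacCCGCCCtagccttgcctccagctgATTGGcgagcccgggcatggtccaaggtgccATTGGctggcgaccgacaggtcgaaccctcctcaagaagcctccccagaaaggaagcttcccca
Srebf2: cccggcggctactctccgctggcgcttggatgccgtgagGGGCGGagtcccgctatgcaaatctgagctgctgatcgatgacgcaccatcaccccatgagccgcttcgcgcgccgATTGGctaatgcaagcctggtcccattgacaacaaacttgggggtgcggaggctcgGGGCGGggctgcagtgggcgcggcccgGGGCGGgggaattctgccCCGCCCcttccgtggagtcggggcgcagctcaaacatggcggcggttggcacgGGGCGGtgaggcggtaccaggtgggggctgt
Lss: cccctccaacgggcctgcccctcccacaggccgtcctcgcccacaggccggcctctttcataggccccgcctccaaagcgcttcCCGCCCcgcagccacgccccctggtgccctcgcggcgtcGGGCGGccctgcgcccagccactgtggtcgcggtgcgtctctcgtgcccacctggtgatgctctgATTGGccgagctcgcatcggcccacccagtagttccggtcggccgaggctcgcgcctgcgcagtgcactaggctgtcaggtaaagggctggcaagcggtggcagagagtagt

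Every CCAAT match in these 4 windows lay on the minus strand, so the letters read ATTGG. Idi1 held 2 CCAAT matches and Insig1, Srebf2 and Lss held 1 each. For GGGCGG, Srebf2 held 5 matches, Insig1 held 3, Lss held 2 and Idi1 held 1. Dhcr7, the remaining member with an entry, held both motifs too. All 5 members thus held both motifs, the 4 with a negative log2 ratio and Idi1 with a positive one.

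The promoters of the other enzymes of the chain were searched in the same way. Over members and other enzymes together, 17 of 22 measured genes had an entry. A gene with several entries counted when any of them held the motif. CCAAT occurred in 16 of the 17, all but Acat2, against 43.39% of the 9000 genes of the table that had an FPKM of at least 1. GGGCGG occurred in 16 of the 17, all but Pmvk, against 71.23% of those 9000 genes. Both occurred in 15 of 17 (88.24%), against 30.94%. Among the 12 fatty acid synthesis genes with an entry, 4 held both, as did 3 of 9 genes of the isoprenoid branch. Of 9 genes with an entry that regulate SREBP2 or the turnover of the pathway's proteins, 5 held both. The sterol regulatory element, searched on both strands as TCACNCCAC, occurred in 0 of the 17 windows and in 1.41% of the 9000. CACCCCAC, a core of that element, occurred in 1 of the 17, that of Acat2, and in 3.88% of the 9000. A match gives the letters only, and a window without one says nothing about the factor.

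The libraries were first checked against their labels. Usp21, the targeted gene, stood at 26.2 in control cells against 3.49 in knockdown cells (FPKM), 7.33-fold lower with 0.1 added to both values (a pseudocount), as in every fold below. The summed FPKM was 613617 for control and 543206 for knockdown cells. From the steps in low values, the control library was 1.24 times as deep if no scaling beyond FPKM was applied. The depth itself is unknown. All 6 mESC markers were highly expressed and lower with the USP21 shRNA (summed FPKM 2190 and 1737), with log2 ratios from -0.86 for Nanog to -0.14 for Sox2. With both libraries set to the same sum of FPKM (equal sums), Nanog (-0.68), Zfp42 (-0.13) and Esrrb (-0.083) were lower. On that scale Pou5f1, Sox2 and Klf4 were at -0.031, 0.033 and 0.024, too near 0 for a direction. The summed FPKM of 8 primitive endoderm markers was 82.2 and 77.3, and 4 of the 8 were lower. Of 7 visceral endoderm markers, genes of a tissue rich in lipid transport, 2 had an FPKM of at least 1 (Amn and Cubn, summed FPKM 13.8 and 11.5), and the defining genes Apoa1, Apoa4, Ttr, Afp and Apob were all under 0.5. Of 7 fibroblast markers, only Thy1 had an FPKM of at least 1 (17.3 and 5.29), and Col3a1, Dcn, Postn and Lum were at or near 0. Of 5 neural progenitor markers, Nes and Sox1 passed this level, with a summed FPKM of 7.79 and 10.7. The part of these shifts in the differences below was not tested. In these bulk samples, fewer cells of a type and less RNA per cell cannot be told apart.

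Of the 7 measured members, 6 were lower with the USP21 shRNA and 1, Idi1, was higher. Insig1 and Fdft1 were lower by more than 1.5-fold, and no member was higher by that much. The log2 ratio of a gene is log2 of FPKM with the USP21 shRNA over FPKM with the control shRNA, with 0.1 added to both, and it was read over the 11927 genes with an FPKM of at least 1 in at least 1 library. All 7 members passed this filter. The members had a median log2 ratio of -0.28, against 0.0031 over all genes, of which 49.57% were lower. A gene is called here when it differs by at least 1.5-fold (0.585 on the log2 scale). Of the 11927 genes, 771 were called lower (6.46%) and 927 higher (7.77%), beside 2 and 0 of the 7 members. At 2-fold, 2.03% of all genes were lower and 2.3% higher, and no member passed in either direction.

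**Figure D1:**
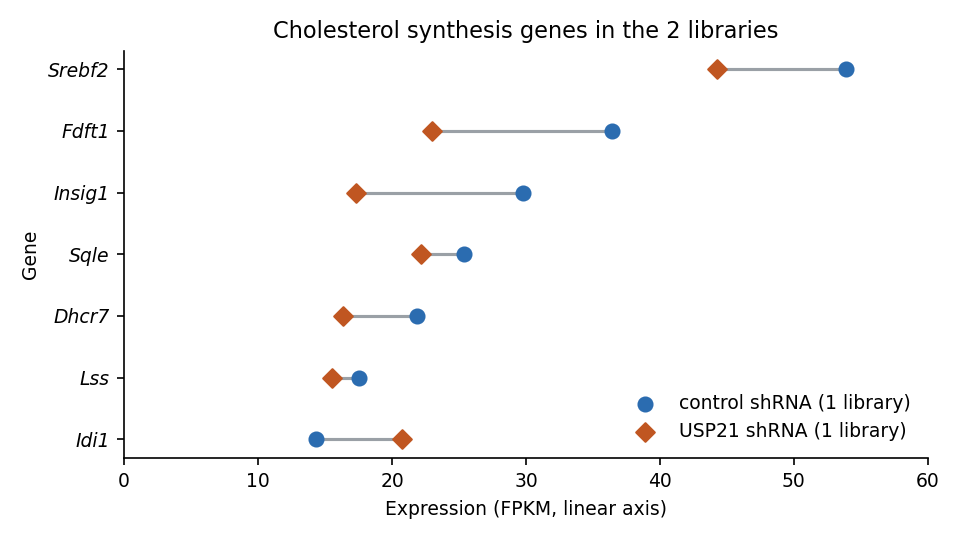
FPKM of the 7 measured members in the control shRNA library (blue circles) and the USP21 shRNA library (orange diamonds), on a linear axis from 0, in the order of their control level. The diamond lies left of the circle for 6 genes and right of it for Idi1 alone, and the longest gaps in proportion are those of Insig1 and Fdft1.

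Idi1 encodes isopentenyl-diphosphate isomerase, which turns isopentenyl diphosphate into dimethylallyl diphosphate, the starter unit of all isoprenoids. Idi1 (chr13:8885501-8892451 of GRCm38, plus strand) had an FPKM of 14.3 in control cells and 20.8 in knockdown cells. It was the lowest of the 7 members in control cells and the fourth highest after knockdown. Its log2 ratio was 0.53, and 1089 of the 11927 genes had a higher one. Of the 31-base words of the Idi1 transcript, 22.2% also occur in other annotated genes, with processed pseudogenes holding the most, and how the fragments of such stretches were assigned is not stated. The paralog Idi2 was near 0 in both libraries, with 0.0415 and 0.0348. Gm48574, on the opposite strand, overlaps Idi1 over 323 exonic bases.

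Fdft1 encodes squalene synthase, which joins a pair of farnesyl diphosphate molecules and is the first enzyme that serves sterols alone. Fdft1 (chr14:63145150-63179578, minus strand) had an FPKM of 36.4 in control cells and 23.0 in knockdown cells. This was 1.58-fold lower, a log2 ratio of -0.66, and 595 genes had a lower ratio. It remained the second highest of the members in each library. Its transcript overlaps that of Ctsb, a lysosomal protease gene on the opposite strand, over 774 exonic bases. Ctsb had 41.3 and 32.6, a log2 ratio of -0.34, and since the strand setting of the counting is not stated, reads of the shared stretch cannot be told apart. A processed pseudogene shares 16.5% of the 31-base words of Fdft1.

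Idi1 and Fdft1 act at neighbouring stages of the chain and differed in opposite directions. The ratio of the FPKM of Idi1 to that of Fdft1 was 0.394 in control cells and 0.903 after knockdown. Fdps, the enzyme between them, which makes farnesyl diphosphate, had 94.5 and 58.3 and a log2 ratio of -0.69. Of the 31-base words of Fdps, 89.7% occur in other annotated genes, so its value is uncertain.

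Sqle encodes squalene epoxidase, a rate-limiting enzyme of the later chain, and Lss encodes lanosterol synthase, which closes the sterol rings. Sqle (chr15:59315077-59331192, plus strand) had an FPKM of 25.4 and 22.2, a log2 ratio of -0.19. Lss (chr10:76531588-76557138, plus strand) had 17.6 and 15.5, a log2 ratio of -0.18. They were lower by 1.14-fold and 1.13-fold, and 3246 and 3460 of the 11927 genes had a lower ratio. Neither shares a 31-base word with another gene. An antisense transcript of Lss, 4930483K19Rik, overlaps it over 381 exonic bases and had an FPKM of only 0.161 and 0.368.

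Dhcr7 encodes 7-dehydrocholesterol reductase, which makes cholesterol from 7-dehydrocholesterol. Dhcr7 (chr7:143823145-143848410, plus strand) had an FPKM of 21.8 in control cells and 16.3 in knockdown cells, a log2 ratio of -0.42. Of all genes, 1423 had a lower ratio.

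Of the regulators among the members, Srebf2 had the highest FPKM of the 7 genes in each library, 53.9 in control cells and 44.3 after knockdown. Srebf2 lies at chr15:82147181-82205379 on the plus strand. Its log2 ratio was -0.28, which is also the median of the members. The related gene Srebf1, whose products favour fatty acid synthesis, had 34.5 and 26.1 and a log2 ratio of -0.40. The FPKM of Srebf2 over that of Srebf1 was 1.56 and 1.69.

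Insig1, which retains SREBP2 in the endoplasmic reticulum and is itself a target of SREBP2, had the lowest ratio of the members. Its FPKM (chr5:28071363-28078662, plus strand) was 29.8 in control cells and 17.3 in knockdown cells, 1.72-fold lower. The log2 ratio was -0.78, and 424 of the 11927 genes had a lower one. A processed pseudogene shares 3.9% of the 31-base words of Insig1. Insig2, which has the same role but is not known as a strong SREBP2 target, had 13.8 and 13.3 and a log2 ratio of -0.05. The FPKM of Insig1 over that of Insig2 was thus 2.16 in control cells and 1.30 after knockdown.

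The levels of the members lay closer together with the USP21 shRNA. The highest was 3.76 times the lowest in control cells and 2.85 times after knockdown. The order with the control shRNA was Srebf2, Fdft1, Insig1, Sqle, Dhcr7, Lss and Idi1. With the USP21 shRNA it was Srebf2, Fdft1, Sqle, Idi1, Insig1, Dhcr7 and Lss. Without replicates it cannot be said which neighbours in these orders differ beyond the spread between cultures. The summed FPKM of the 7 members was 199 and 159, or 19.97% lower, while that of the 11927 genes was 11.5% lower. The members' mean levels of the 2 libraries ran from 16.5 to 49.1. Over the 2958 genes within that range the median log2 ratio was -0.0045, with 4.26% called lower and 4.23% higher. The summed FPKM of these 2958 genes was 0.57% lower.

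The other enzymes of the chain were then read along the pathway. Of these 15 genes, all measured, 14 were lower, 5 of them by at least 1.5-fold, and 1 was higher, by less than 1.5-fold. The calls were 4 with a pseudocount of 1 and after the length and GC correction, and 2 with equal sums (Msmo1 and Cyp51). Of the 11927 genes, 512 were called lower with a pseudocount of 1 and 465 with equal sums. After the length and GC correction, 668 of 11378 genes were. The median log2 ratio of the 15 was -0.45. As deposited, 6.46% of all genes were called lower and 7.77% higher. The genes named here are some of these 15, and the counts and medians cover all of them. Acat2, which joins acetyl-CoA units at the start, had an FPKM of 58.1 and 45.8 and a log2 ratio of -0.34. It shares 50.5% of its 31-base words with Acat3, which had a log2 ratio of -0.51. The kinases Mvk and Pmvk and the decarboxylase Mvd, which carry mevalonate to isopentenyl diphosphate, had log2 ratios of -0.41, -0.52 and -0.45. Of the 7 measured enzymes up to farnesyl diphosphate, Idi1 was therefore the only one that was higher.

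The lowest ratios of the chain, those of Msmo1 and Cyp51, lay after lanosterol. Msmo1, the sterol methyl oxidase that starts removal of the C4 methyl groups, had an FPKM of 37.1 in control cells and 18.1 in knockdown cells. Its log2 ratio of -1.03 was the only one of the 20 measured enzymes past 2-fold, and it was -0.99 with a pseudocount of 1, -0.95 after the length and GC correction and -0.85 with equal sums. Cyp51, the lanosterol demethylase, had 17.8 and 10.1 and a log2 ratio of -0.81. Ebp, the sterol isomerase, had 19.99 and 12.4 and a log2 ratio of -0.69. Tm7sf2, a sterol reductase, had 9.44 and 6.10 and a log2 ratio of -0.62, which was -0.56, short of a call, with a pseudocount of 1 and after the length and GC correction. Cyp51 overlaps Akap9 on the opposite strand over 166 exonic bases (Akap9 log2 ratio 0.30), and Tm7sf2 overlaps Vps51 on the same strand over 532 (Vps51 log2 ratio -0.14). Lbr, Nsdhl, Hsd17b7 and Sc5d, which also act after lanosterol, were lower by less than 1.5-fold, with log2 ratios from -0.28 to -0.19.

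In all, 18 of the 20 measured enzymes were lower, 6 of them by at least 1.5-fold, and none was higher by that much. Over all genes, 49.57% were lower, with 6.46% called lower and 7.77% called higher. The 6 include Fdps, whose value is uncertain. With equal sums, Msmo1 and Cyp51 alone were called lower, while Idi1 and 1 of the other enzymes were called higher. On that scale, 465 of the 11927 genes were called lower and 1658 higher. The 20 enzymes had a median log2 ratio of -0.42 and a summed FPKM of 638 and 505. By stage, 6 of 7 were lower up to farnesyl diphosphate (median -0.45), 3 of 3 from there to lanosterol (median -0.19) and 9 of 10 from lanosterol to cholesterol (median -0.35). All genes of the chain, members included, shared a control level well above the filter, from 7.37 for Hsd17b7 to 102 for Lbr.

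**Figure D2:**
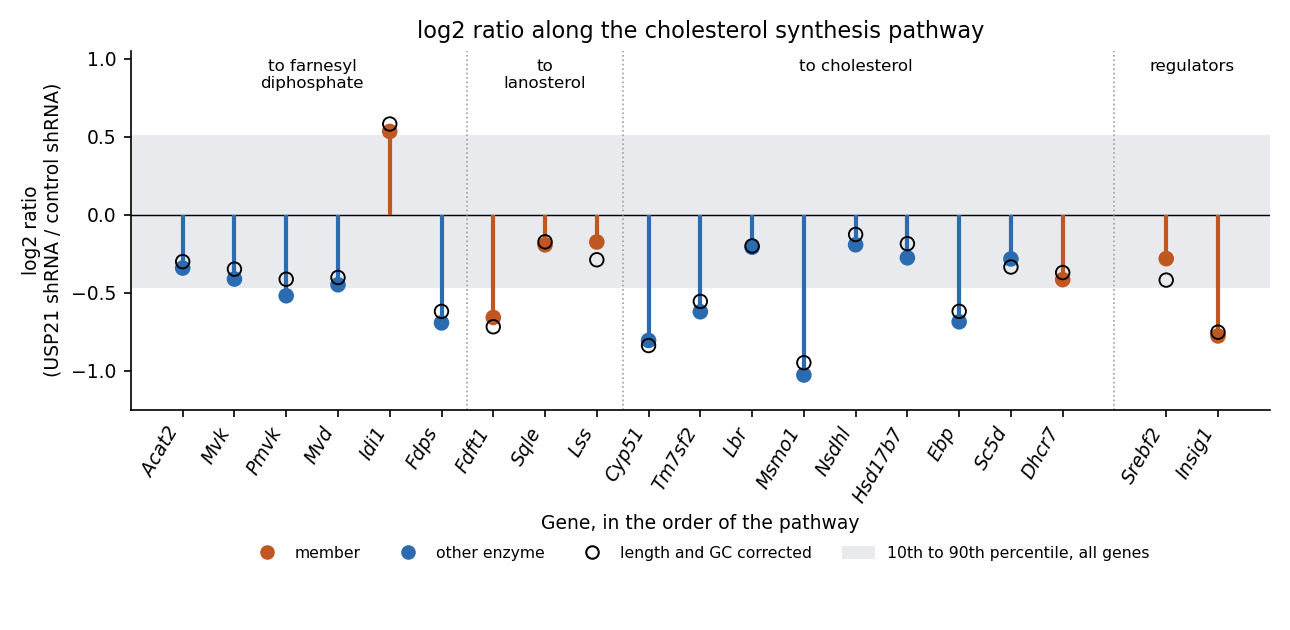
log2 ratio (USP21 shRNA over control shRNA) of synthesis enzymes in the order of the pathway, 18 of the 20 measured, with Srebf2 and Insig1 at the right. Filled points are the values as deposited (orange for members, blue for other enzymes), open circles are corrected for transcript length and GC content, and the grey band holds the 10th to 90th percentile of all genes (-0.46 to 0.51); of the enzymes drawn, Idi1 alone lies above 0, while the counts in the text cover all 20.

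The log2 ratio followed transcript length over all genes, with a Spearman rho of 0.32 across 11378 genes, which are not independent replicates. The median transcript of the 7 members was 3027 bases long, against 2906 bases over all genes. After a lowess correction for length and GC content, rho was 0.024, and again 6 of the 7 members were lower. Their median was then -0.37. Insig1 had a corrected log2 ratio of -0.75, Fdft1 of -0.72, Srebf2 of -0.42, Dhcr7 of -0.37, Lss of -0.29, Sqle of -0.18 and Idi1 of 0.58. Of the other enzymes, 14 of 15 were lower with a median of -0.40.

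The scale of the libraries moved the members more than the correction did. Rescaling both libraries to the same sum of FPKM, which gives TPM, raised every log2 ratio by about 0.18 and the median of all genes to 0.18. The calls over all genes then split into 1658 higher and 465 lower, with 78.1% higher in place of 54.59%. On this scale the members' median was -0.11, Insig1 was the only member called lower (-0.60), Fdft1 was no longer called (-0.48) and Idi1 was called higher (0.71). Lss and Sqle were at -0.0013 and -0.019, so near 0 that no direction can be given on this scale. Relative to the median of all genes, the members' median was -0.29 as deposited and -0.28 with equal sums.

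**Figure D3:**
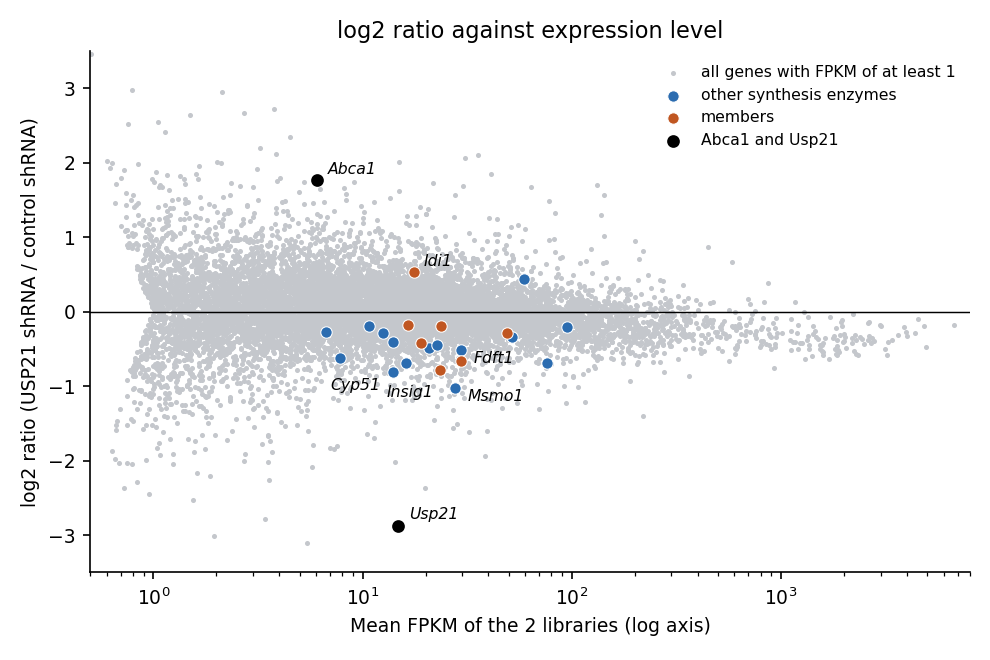
log2 ratio (USP21 shRNA over control shRNA) against the mean FPKM of both libraries (log axis) for the 11927 genes with an FPKM of at least 1, in grey, with members in orange, other synthesis enzymes in blue and Abca1 and Usp21 in black. Most synthesis genes lie under 0 at a level where the grey cloud is centred on it; 8 genes with a log2 ratio beyond 3.5 in size lie outside the axis.

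Of the genes that act on SREBP2 and on the turnover of the pathway's proteins, more were higher than lower. Of 14 such genes, 9 were higher and 5 lower as deposited, and none passed 1.5-fold. Over all genes, 49.57% were lower. After the length and GC correction, 6 of the 14 were lower, and with equal sums 2 were. Scap, the sterol-sensing escort of SREBP2, had an FPKM of 18.1 and 18.9 and a log2 ratio of 0.07, or -0.03 after that correction. Mbtps1 and Mbtps2, the proteases that activate SREBP2, had log2 ratios of 0.33 and 0.26. Over all its annotated transcripts, Mbtps2 shares 2867 exonic bases with Yy2 on the same strand. Of the 31-base words of its longest coding transcript, 1.49% occur in other genes. How reads of the shared stretch were assigned is not stated. Among genes tied to the degradation of proteins of the pathway, March6, a ubiquitin ligase for squalene epoxidase, had a log2 ratio of 0.43 and Erlin1 of 0.39, while Rnf139 had -0.27. On the opposite strand, Rnf139 overlaps Tatdn1 over 1140 exonic bases and Scap overlaps 5830462I19Rik over 985. The median of the list was 0.18, and 0.07 after the length and GC correction, and their median transcript was 4263 bases long.

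Genes of cholesterol uptake and transport were mixed. Of 9 listed genes, 8 passed the filter, of which 5 were lower, and the median log2 ratio was -0.12, which turned to 0.056 with equal sums. Stard4, which carries cholesterol through the cytosol and is known as an SREBP2 target, had an FPKM of 9.82 and 6.59 and a log2 ratio of -0.57, which passed 1.5-fold after the length and GC correction (-0.64). Npc1, which exports cholesterol from lysosomes, was higher, with 7.34 and 13.0 and a log2 ratio of 0.82. It overlaps Rmc1 on the opposite strand over 511 exonic bases, and the strand setting of the counting is not stated. Vldlr, a lipoprotein receptor gene, was at a low level and also higher, with 0.608 and 1.33. Its log2 ratio was 1.02, and 0.54, short of a call, with a pseudocount of 1. A filter at FPKM 5, which Vldlr did not pass, kept 6 genes of the list. Of these, 5 were lower, with a median of -0.26.

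The largest difference of any sterol gene listed was that of Abca1, the exporter of cholesterol to apolipoprotein A-I and a known target of the liver X receptors. Abca1 had an FPKM of 2.70 in control cells and 9.44 in knockdown cells, 3.41-fold higher. Its log2 ratio was 1.77, with only 38 genes higher, and 1.49 after the length and GC correction. Nr1h3, which encodes liver X receptor alpha, had 0.810 and 1.51 and a log2 ratio of 0.83, or 0.47, short of a call, with a pseudocount of 1. Nr1h3 and Vldlr passed the filter only through the library in which they were higher, and both stay in the counts and medians of their lists. The other known target genes of these receptors in the list were lower or near 0. Abcg1 had a log2 ratio of -0.26 and Apoe of -0.48 (128 and 91.6), and Lpcat3 had 0.05. Ch25h was listed at 0 in both libraries. Of the 8 storage and efflux genes past the filter, 3 were lower and the median was 0.09.

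Fatty acid synthesis genes, which SREBP1 mainly controls, were also lower for the larger part. Of 15 genes, 10 were lower, 2 of them by at least 1.5-fold, and the median log2 ratio was -0.28. Over all genes, 49.57% were lower and 6.46% were called lower. Thrsp (1.26 and 0.828), 1 of the 10, passed the filter only through the control library. With a filter at FPKM 5, 9 of 13 genes were lower, with a median of -0.28. Scd1 and Scd2, the desaturases that make oleate, were both called lower. Scd1 had an FPKM of 25.3 and 12.3, a log2 ratio of -1.04, and Scd2 had 112 and 69.4, a log2 ratio of -0.69. With equal sums Scd2 was at -0.51, short of a call. Fasn, the fatty acid synthase, had 96.4 and 79.6 and a log2 ratio of -0.28, or -0.59 and past 1.5-fold after the length and GC correction. Acaca, the acetyl-CoA carboxylase before it, had 0.25, or -0.016 after the length and GC correction. The other higher genes of the list, Acss2, Gpam, Acacb and Elovl6, had 0.37, 0.40, 0.38 and 0.20. After that correction they had 0.38, 0.25, 0.10 and 0.093. A processed pseudogene shares 56.8% of the 31-base words of Acaca. The isoprenoid branch genes, which act in protein prenylation and its later steps or in dolichol and ubiquinone synthesis, lay around 0. Of these 11 genes, 7 were lower, none was called, and the log2 ratios ran from -0.17 to 0.29 with a median of -0.02, or 0.16 with equal sums. On that scale 1 of the 11, Dhdds, was lower, at only -0.0009.

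**Figure D4:**
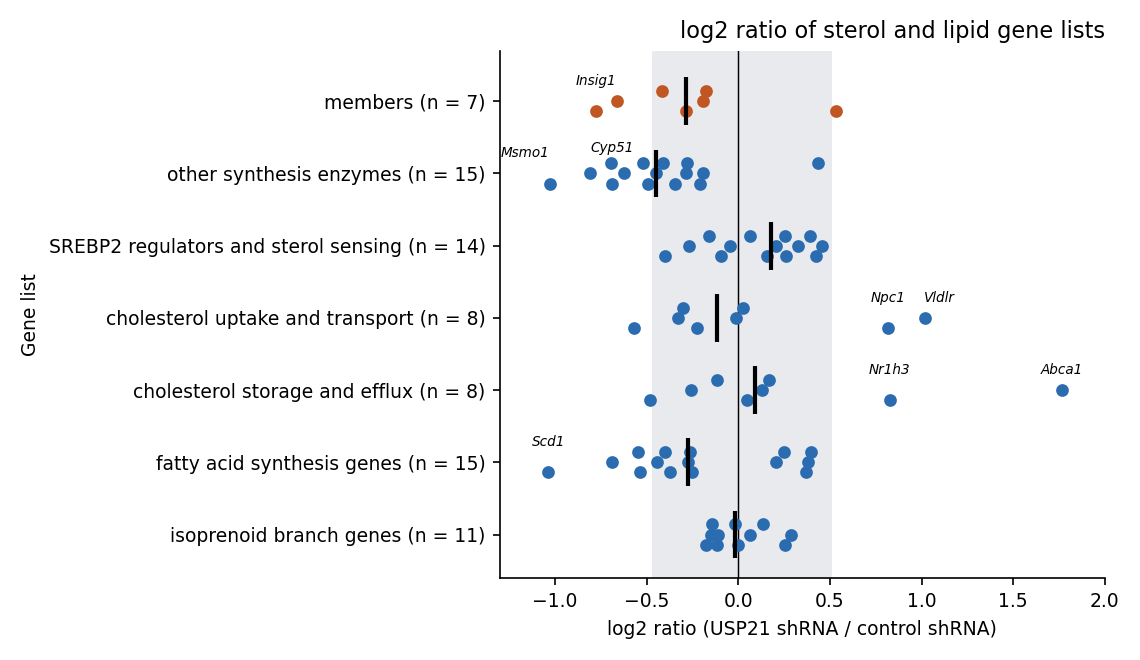
log2 ratio (USP21 shRNA over control shRNA) of every gene past the filter in 7 lists, 1 point for each gene, with the list median as a black bar and the 10th to 90th percentile of all genes in grey. The members and the other synthesis enzymes lie mostly under 0, 9 of the 14 regulators lie above 0, and Abca1 stands farthest to the right.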

How the data were processed

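The authors deposited 1 FPKM value for each gene symbol and library. The submitters' processing notes name CASAVA 1.8.2, TopHat2 2.0.14, Cufflinks 2.2.1 and the build mm9, without saying what each was used for. The annotation, the strand setting and any scaling beyond FPKM are not given in the sources used here, and the paper's methods do not describe this sequencing.

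The log2 ratio was that of the USP21 shRNA library over the control library, with 0.1 added to both FPKM values, which understates the difference of low genes. Genes that reached an FPKM of 1 in either library were kept, and genes at 1.5-fold or more were called. With 1 library per group no p-value was computed. The files hold no counts, so no interval or detection floor is given, and the relative depth came from the steps of 1439 low genes.

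Named genes were all members, Usp21, genes of the listed pathways (with values for those past 1.5-fold and those at a high level) and genes that share sequence or exons with them. Values of further list genes were given for their role or to set them beside the named ones, and were chosen after they were seen. Some list genes are not reported here by name, but the counts, sums and medians include them. The members and lists were chosen with earlier results of these data known. Transcripts (1 per gene, the longest coding sequence) and positions came from GENCODE M21 (GRCm38), which covered 95.4% of the kept genes. The lowess correction had a span of 0.3. Promoters came from RefSeq. Alternatives were pseudocounts of 1 and 0.01, filters of none and of FPKM 5, equal sums (TPM), a median of 0, and the lowess correction. The genes within the members' range of levels were added after seeing the data. Scripts were tested on simulated data and run with matplotlib 3.10.9, statsmodels 0.14.6, scipy 1.17.1, pandas 2.3.3, numpy 2.4.6 and Python 3.11.15.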

Additional observations from a re-analysis of the deposited data

How the results depend on the processing

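All 20 lower synthesis genes kept a negative log2 ratio, and the 2 higher ones a positive one, under both other pseudocounts, a median of 0 and the length and GC correction. With equal sums Lss (-0.0013), Sqle (-0.019), Nsdhl (-0.020) and Lbr (-0.034) were too near 0 for a direction. With equal sums (TPM) the median log2 ratio was -0.11 for the members, -0.28 for the other synthesis enzymes, 0.35 for the regulators, 0.056 for uptake and transport, 0.27 for storage and efflux, -0.10 for fatty acid synthesis and 0.16 for the isoprenoid branch. Members called lower were then 1 and higher 1, and other enzymes called lower were 2 and higher 1. The uniform shift of 0.18 that this scale adds moved these values. With the length and GC correction the median was 0.070 for the regulators and -0.44 for fatty acid synthesis. For uptake and transport it was -0.22 without a filter and -0.26 with a filter at FPKM 5, where other genes entered or left the list. The 15 synthesis promoters with both motifs were again 15 in the 250 bases before the start.

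Over all genes, the calls were 927 higher and 771 lower, 607 and 512 with a pseudocount of 1, 1738 and 1514 without a filter, 496 and 408 with a filter at FPKM 5, and 1658 and 465 with equal sums. No library could be left out and no replicate error can be given, because each group had 1 library. No paired analysis was possible because each group had 1 library. The absolute depth is unknown, so the counting error of a gene such as Vldlr or Nr1h3, near an FPKM of 1, cannot be stated.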
